A study of Mus musculus with 24 samples.

Results

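Transcripts of B16F10 cells, a pigmented mouse melanoma line, that had lost both Rnf31 and Atg5 were compared with those of cells that had lost Rnf31 alone, both kept in TNFα at 2 ng/ml for 24 h. The comparison took 3 libraries of the double knockout and 3 of the Rnf31 knockout, 6 of the 24 in the series, chosen by their labels. The other 18 libraries belong to the same lines with vehicle, and to a control knockout line, labelled wild type, and an Atg5 knockout with vehicle or TNFα. Of these, 2 further contrasts are set beside the main one: the double against the Rnf31 knockout with vehicle, and the Atg5 knockout against the control knockout under TNFα. All groups in the first pair of lines lacked Rnf31, so the TNFα comparison asks what differs when Atg5 is also disrupted in cells without Rnf31. Of 15738 named genes, 13527 had enough counts to be tested.

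The labels call the 3 samples of a group biological replicates. Whether a line was 1 clone or a pool, and where each gene was edited, is not given in the sources used here. The comparison is between 2 lines, so loss of Atg5 and any other difference between those lines cannot be told apart, and p-values measure the spread between samples of 1 line. With bulk RNA, fewer cells expressing a gene and less RNA of it per cell cannot be told apart either.

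As background, Atg5 is joined to Atg12 and, with Atg16l1, helps attach LC3 to the growing autophagosome membrane, a step that autophagy of cytoplasm, mitochondria and protein aggregates relies on. Rnf31, also called HOIP, builds linear ubiquitin chains as the active member of the complex LUBAC, and these chains stabilise signalling from TNF receptor 1 toward NF-κB and restrain cell death. Interferon-stimulated genes are switched on by a complex of STAT proteins and Irf9, which binds the interferon-stimulated response element, and they encode antiviral enzymes, nucleic acid sensors and parts of the antigen-presentation machinery.

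Total counts over named genes were 19425795 to 31549732 in the 6 libraries. Melanocyte genes fit the labelled cell type, with Tyrp1, Dct and Pmel among the abundant transcripts, and the 7 melanocyte identity genes summed to 18654 to 18938 CPM (counts scaled to a common library size) in the Rnf31 knockout and 19945 to 20438 CPM in the double knockout. Markers of other cells were few. Cd68, the 1 macrophage marker of 4 that was analysed, stood at 1.87, 1.95 and 2.26 CPM in the Rnf31 knockout and at 4.81, 4.46 and 4.46 CPM in the double knockout. The 3 fibroblast markers analysed, Col1a1, Col1a2 and Pdgfra, summed to 9.88 to 10.8 CPM in the Rnf31 knockout and 4.66 to 5.89 CPM in the double knockout. The listed leukocyte and keratinocyte markers, the macrophage markers Adgre1, Csf1r and Itgam, and the endothelial markers Cdh5 and Kdr were not analysed here. What part Cd68 or the fibroblast genes have in any result was not tested.

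Atg5 itself was lower in the double knockout. Atg5 stood at 43.4, 43.4 and 40.99 CPM in the Rnf31 knockout and at 27.3, 24.9 and 22.4 CPM in the double knockout, a log2 fold change of -0.77 ± 0.08 (SE, n = 3 and 3, edgeR adjusted p = 5.27e-09). The gene lies at chr10:44268358-44364291 (GRCm38), and the counts cover the whole gene, so they do not show whether the remaining transcript encodes protein. Rnf31, at chr14:55591708-55603693, stood at 8.43, 7.56 and 6.84 CPM in the Rnf31 knockout and at 6.70, 7.12 and 7.38 CPM in the double knockout, with a log2 difference of -0.11 ± 0.10 (adjusted p = 0.390). The 3 control knockout libraries under TNFα held 10.9, 10.3 and 10.4 CPM of Rnf31, above all 6.

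At an adjusted p under 0.05, 6956 genes were called, 51.4% of those tested. Of these, 3272 (24.2%) were higher in the double knockout and 3684 (27.2%) lower. Changes above 2-fold were fewer, at 616 genes higher (4.55%) and 300 lower (2.22%). In 7916 genes (58.5%) the 3 libraries of one line lay wholly above or below those of the other, with the double knockout below in 31.2%. Because about 1 gene in 4 was called in each direction, the members of a list are read below against those shares and by the size of their change. The median log2 fold change of all genes tested was -0.022.

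Interferon-stimulated antiviral genes gave the largest shift. Of 43 tested genes on the list, 42 rose in the double knockout and none fell, against 24.2% higher among all genes, with a median log2 fold change of 3.59. Their summed level went from 349 to 366 CPM in the Rnf31 knockout to 1999 to 2338 CPM in the double knockout. The exception was Trim25, an E3 ligase that activates Rig-I, at 11.4, 9.05 and 8.83 CPM against 11.7, 8.17 and 8.71 CPM, a log2 difference of -0.02 ± 0.12 (adjusted p = 0.879). Oas3, the other listed gene, had too few counts to be tested.

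Isg15, a ubiquitin-like modifier, rose from 4.02, 2.84 and 3.25 CPM to 129.6, 105 and 106 CPM, a log2 fold change of 5.08 ± 0.12 (adjusted p = 6.40e-23). Oas1a, an enzyme that senses double-stranded RNA and makes the activator of RNase L, rose from 1.67, 1.70 and 1.61 CPM to 105, 84.9 and 89.3 CPM (5.81 ± 0.12, adjusted p = 3.42e-24). Rtp4 rose from 0.624, 0.895 and 0.841 CPM to 60.6, 52.1 and 56.4 CPM (6.15 ± 0.13, adjusted p = 1.11e-23). In each of the 3 genes the lowest double knockout library lay far above the highest Rnf31 knockout library. The more abundant Lgals3bp, a secreted galectin-binding glycoprotein, rose from 47.2, 42.2 and 44.7 CPM to 365, 329 and 373 CPM (2.99 ± 0.06, adjusted p = 3.42e-24), and Ifitm3, which blocks viral entry at endosomes, rose from 22.9, 19.5 and 21.03 CPM to 217, 183 and 203 CPM (3.25 ± 0.08).

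Interferon-inducible families also filled the top of the whole ranking, where many of the genes were near 0 in the Rnf31 knockout. Ifi203, a member of the HIN-200 family that includes DNA sensors, had 0 counts over the 3 Rnf31 knockout libraries and 501 in the double knockout, at least 212-fold higher when the empty group is set to 3 counts in sum. Its neighbours in that family Ifi204 and Mndal were at least 198-fold and at least 149-fold higher by the same bound. Usp18, the protease that removes Isg15 and damps interferon receptor signalling, had 18 counts against 2352, a ratio of 166 (95% counting interval 105 to 280.4). Trim30a had 21 counts against 3456, a ratio of 209 (136 to 338), and its paralogue Trim30d went from 0 counts to 285, at least 121-fold higher. These families hold near-identical paralogues, so the division of reads among members depends on the authors' estimation.

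**Figure D1:**
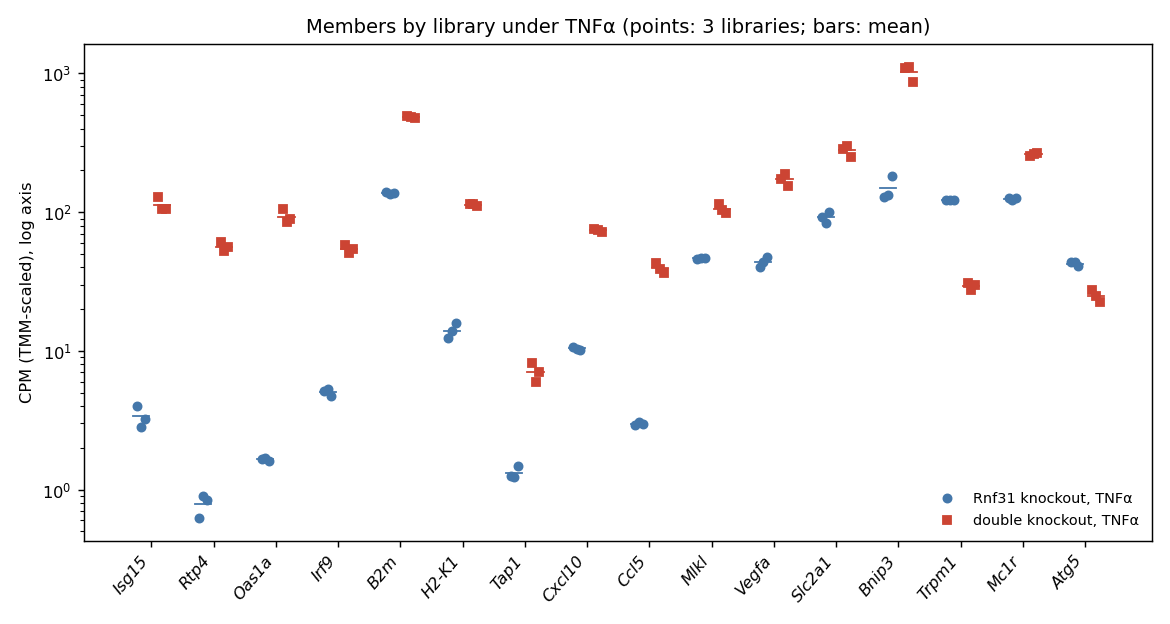
Level of 16 named genes in each of the 6 libraries under TNFα, in CPM on a log axis. Circles are the 3 Rnf31 knockout libraries, squares the 3 double knockout libraries and bars the group means. Isg15, Rtp4 and Oas1a show the widest gaps, and Trpm1 and Atg5 are the genes drawn that lie lower in the double knockout.

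Start-site regions are shown for some interferon-stimulated genes and for the MHC class I gene B2m, chosen among genes that held a match to the response element. The 250 bases before the annotated start were searched on both strands for GAAANNGAAA, the core of the interferon-stimulated response element. The sequences are from RefSeq on GRCm38.p6, each written 5′ to 3′ on the strand of the gene, with the matches in capitals. Where the reverse complement matched, the capitals read TTTC first. Isg15 (chr4:156200850-156200909, minus strand) has overlapping matches whose nearest end lies 56 bases before the start, and Oas1a (chr5:120907526-120907564, minus strand) has them 4 bases before it. Ifit1 (chr19:34640779-34640838, plus strand) has 2 separate matches, and Trim30a (chr7:104465195-104465254, minus strand) and B2m (chr2:122147523-122147582, plus strand) have 1 each.
Isg15: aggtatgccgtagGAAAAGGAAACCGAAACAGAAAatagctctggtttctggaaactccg
Oas1a: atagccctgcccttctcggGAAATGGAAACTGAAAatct
Ifit1: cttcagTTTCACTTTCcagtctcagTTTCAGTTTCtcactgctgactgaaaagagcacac
Trim30a: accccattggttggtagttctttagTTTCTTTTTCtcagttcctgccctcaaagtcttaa
B2m: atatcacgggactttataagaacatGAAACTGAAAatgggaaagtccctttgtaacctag

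The match occurred in 14 of the 32 listed interferon-stimulated genes with a promoter sequence (43.8%). Related lists held it less often. It was in 3 of 18 MHC class I genes (16.7%), in 3 of 18 interferon receptors, STATs and IRFs (16.7%) and in 0 of 10 nucleic acid sensors and adaptors. Among the 15 genes with the largest rise, 10 had a sequence and 8 of those held a match (80%). Genes over 2-fold higher held one in 48 of 444 (10.8%), and genes over 2-fold lower in 9 of 200 (4.5%). The share was 3% (301 of 10017) over all tested genes with a sequence, and 3.46% over all 27025 promoters. A match is a string of letters in this window, and binding was not measured.

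The transcription factors of the same pathway split by member. Irf9, the DNA-binding partner of Stat2, rose from 5.13, 5.34 and 4.70 CPM to 57.9, 51.2 and 54.2 CPM (3.42 ± 0.09, adjusted p = 2.69e-22). Irf7, which amplifies type I interferon production, rose by 5.05 ± 0.24 on the log2 scale, Stat2 by 1.42 ± 0.14 and Irf1 by 1.04 ± 0.08. The receptor chain Ifnar1 fell, from 61.4, 62.6 and 63.5 CPM to 52.4, 49.6 and 53.1 CPM (-0.27 ± 0.05). In all, 10 of the 19 tested receptors, STATs and IRFs rose, 4 fell and 5 were not called, with a median of 0.19. Ifnb1, the interferon-β gene, was not analysed here.

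Of 13 tested nucleic acid sensors and adaptors, 10 rose and 2 fell, with a median log2 fold change of 0.61. Ddx58, which encodes the RNA sensor Rig-I, rose from 4.34, 5.71 and 5.12 CPM to 93.5, 82.2 and 92.8 CPM (4.14 ± 0.11). Ifih1, the gene of the long-RNA sensor Mda5, rose from 6.66, 6.82 and 7.07 CPM to 43.96, 36.9 and 40.7 CPM (2.56 ± 0.09). Mavs, the mitochondrial adaptor that both sensors use, went the other way, from 28.3, 31.5 and 30.01 CPM to 21.2, 22.8 and 24.1 CPM (-0.40 ± 0.07, adjusted p = 4.97e-05). Zbp1, a sensor of left-handed nucleic acid that can start necroptosis, had 1 count in the Rnf31 knockout and 47 in the double knockout, a ratio of 59.7 with a 95% counting interval of 10.2 to 2406.

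Transcripts of MHC class I antigen presentation were mostly higher. Of 21 tested genes, 16 rose and 1 fell, with a median of 1.53. Their summed level overlapped, at 4971 to 5026 CPM in the Rnf31 knockout and 4742 to 5040.2 CPM in the double knockout. The light chain B2m rose from 140.0, 135 and 137 CPM to 494, 485 and 479.6 CPM (1.83 ± 0.05, adjusted p = 5.96e-22), and the heavy chain H2-K1 from 12.3, 13.96 and 15.8 CPM to 114, 115 and 109.9 CPM (3.01 ± 0.12, adjusted p = 7.01e-18). Tap1, a subunit of the peptide transporter, rose from 1.25, 1.24 and 1.49 CPM to 8.14, 5.94 and 7.07 CPM (2.42 ± 0.18), and Tapbp, which holds the heavy chain at the transporter, rose by 1.53 ± 0.06. In these 4 genes all 3 double knockout libraries lay above all 3 Rnf31 knockout libraries, which also held for 27.3% of all genes tested. Calr, an endoplasmic reticulum lectin that helps load peptide and is also a general chaperone, fell from 2511, 2495 and 2434 CPM to 1777, 1619.6 and 1717 CPM (-0.54 ± 0.04). Class I heavy chains are near-identical copies, so their separate values depend on how shared reads were divided.

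Among chemokines and cytokines, 14 of 25 listed genes had enough counts, and 10 of the others, Ccl2 among them, were not analysed here. Of the 14, 7 rose, 1 fell and 6 were not called, with a median of 1.71. Cxcl10, which draws activated T cells through Cxcr3, rose from 10.7, 10.4 and 10.2 CPM to 75.7, 74.95 and 72.3 CPM (2.83 ± 0.08, adjusted p = 1.19e-21), and Ccl5, a T cell and monocyte attractant, rose from 2.91, 3.06 and 2.98 CPM to 43.1, 39.05 and 36.6 CPM (3.73 ± 0.13, adjusted p = 9.08e-19). Cxcl1, a neutrophil chemokine, was low in both lines, with 11 counts against 172, a ratio of 19.8 (95% counting interval 10.8 to 40.5). Il11, a cytokine of the interleukin-6 family, fell, with 35 counts against 1, a ratio of 27.6 (4.63 to 1119.8). Csf1, the macrophage growth factor, was at 15.1, 15.7 and 16.5 CPM against 15.3, 12.6 and 15.4 CPM, a log2 difference of -0.13 ± 0.09 (adjusted p = 0.216).

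The promoters of 3 genes of the NF-κB and chemokine groups are shown because Cxcl10 held both elements searched. For NF-κB the string GGGANNTTCC was used on both strands. Cxcl10 (minus strand) has it at chr5:92349014-92349073, beside an interferon-type match at chr5:92349068-92349127, and Cxcl1 (chr5:90891150-90891209, plus strand) and Nfkbia (chr12:55492648-55492701, minus strand) have it as well. Capitals mark the matches, and the sequences are from RefSeq on GRCm38.p6 as above.
Cxcl10, interferon-type: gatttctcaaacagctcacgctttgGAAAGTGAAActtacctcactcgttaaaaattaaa
Cxcl10, NF-κB-type: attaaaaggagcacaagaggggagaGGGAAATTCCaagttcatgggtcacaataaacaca
Cxcl1, NF-κB-type: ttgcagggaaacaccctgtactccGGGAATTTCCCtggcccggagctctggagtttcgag
Nfkbia, NF-κB-type: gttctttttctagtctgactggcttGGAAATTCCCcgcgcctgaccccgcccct

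This string was in 4 of the 9 tested chemokine genes with a sequence (44.4%) and in 2 of 10 NF-κB genes (20%). TNF receptor complex genes held it in 2 of 18 (11.1%) and TNF-induced feedback and adhesion genes in 0 of 15. It was in 1.37% of tested genes (137 of 10017) and in 1.36% of all promoters.

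NF-κB genes moved less than the interferon genes. Of 14 tested subunits, kinases and inhibitors, 7 rose and 2 fell, with a median of 0.13. Relb, the subunit of the non-canonical arm, rose from 7.67, 8.15 and 8.72 CPM to 11.96, 12.2 and 12.1 CPM (0.57 ± 0.11, adjusted p = 8.63e-05). The inhibitor Nfkbia, a rapid NF-κB target, rose from 17.2, 15.5 and 17.6 CPM to 27.1, 31.8 and 21.1 CPM (0.68 ± 0.11), and the atypical inhibitor Nfkbiz rose by 1.32 ± 0.10. Nfkb1 and Nfkbib fell by 0.18 and 0.20 on the log2 scale, and neither was called without Rnf31 knockout replicate 1.

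Of 17 tested TNF-induced feedback and adhesion genes, 8 rose and 1 fell, with a median of 0.44. Tnfaip3, the gene of the deubiquitinase A20 that limits NF-κB, rose from 0.624, 1.05 and 1.15 CPM to 4.35, 5.98 and 6.30 CPM (2.55 ± 0.22). Ier3, an early stress-response gene, rose from 23.2, 24.4 and 33.6 CPM to 169, 189 and 158 CPM (2.68 ± 0.11, adjusted p = 4.53e-17). Birc3, the inhibitor of apoptosis recruited to TNF receptor 1, was at 1.70, 1.39 and 1.99 CPM against 2.46, 2.27 and 2.10 CPM (0.44 ± 0.21, adjusted p = 0.0808). The adhesion gene Vcam1 fell at very low levels, from 0.520, 0.216 and 0.191 CPM to 0.114, 0.0437 and 0.0512 CPM (-2.03 ± 0.68, adjusted p = 0.0142), and it was not called without Rnf31 knockout replicate 1 (-1.42) or without double knockout replicate 2 (-1.79).

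Called differences in the receptor complex itself were small. Of 21 genes, 5 rose, 4 fell and 12 were not called, with a median of 0.07. The share called lay near the 51.4% of all genes, and with RLE size factors 7 rose and 3 fell. The kinase Ripk1, which sits at the branch between NF-κB and death, was at 47.4, 45.8 and 47.3 CPM against 44.1, 48.2 and 44.97 CPM (-0.03 ± 0.07, adjusted p = 0.710). The adaptor Tradd rose by 0.38 ± 0.06, Traf6 by 0.34 ± 0.06 and Ikbkg, the NEMO subunit that binds linear ubiquitin, by 0.36 ± 0.07, while Tab1 fell by 0.59 ± 0.11. The largest fitted value was that of Tnfrsf1b, the gene of TNF receptor 2, named after its values were seen, which had 10 counts over the 3 Rnf31 knockout libraries against 1 over the 3 double knockout libraries and was not called (-2.66 ± 1.54, adjusted p = 0.153). With a correction for transcript length, 6 rose and 1 fell. The number that fell was 2 without Rnf31 knockout replicate 2 or without double knockout replicate 1 or 3, and 1 without Rnf31 knockout replicate 3.

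Among 17 tested genes of extrinsic death and necroptosis, 9 rose and 4 fell, with a median of 0.20. Mlkl, the membrane-breaking effector of necroptosis, rose from 46.2, 47.1 and 46.8 CPM to 115, 104 and 99.3 CPM (1.18 ± 0.06, adjusted p = 2.34e-15). Ripk3, the kinase that activates it, was not analysed here. Casp4, the mouse caspase-11 gene of inflammatory death, had 18 counts against 178, a ratio of 12.6 (95% counting interval 7.72 to 21.7). Casp6, an executioner, rose from 9.96, 12.2 and 11.7 CPM to 30.4, 32.6 and 26.2 CPM (1.40 ± 0.09). Smaller rises were seen in the initiator Casp8 (0.30 ± 0.05) and its inhibitor Cflar (0.43 ± 0.05). Members that fell included Gsdmd, a pore-forming gasdermin (-1.53 ± 0.35), Bid (-0.33 ± 0.08) and Fadd (-0.21 ± 0.07). In the Bcl2 family and apoptosome, 6 of 15 tested genes rose and 1 fell. The survival gene Bcl2l1 rose from 56.8, 54.4 and 55.8 CPM to 89.6, 93.5 and 83.9 CPM (0.68 ± 0.05) and Mcl1 rose by 0.21 ± 0.04, while Htra2, a mitochondrial protease that can promote apoptosis, fell by 0.54 ± 0.06.

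Genes of the process that Atg5 serves moved in both directions. Of 35 genes of autophagosome formation, 14 rose, 8 fell (Atg5 among them) and 13 were not called, with a median of 0.01. Gabarapl2, an LC3 relative conjugated to membranes, rose from 55.9, 60.1 and 62.5 CPM to 102, 101 and 86.1 CPM (0.70 ± 0.07), and Map1lc3b, the gene of LC3B, from 120.2, 123 and 129 CPM to 168, 166 and 153 CPM (0.39 ± 0.06). Uvrag, a partner of the lipid kinase Vps34, fell from 101, 99.5 and 98.9 CPM to 73.8, 73.99 and 81.6 CPM (-0.38 ± 0.05). Without Rnf31 knockout replicate 2, or without replicate 3, the number lower was 5.

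Selective autophagy receptors rose in 8 of 19 tested and fell in 5 (3 without double knockout replicate 3), with a median of 0.14. Sqstm1, the gene of p62, whose protein is itself cleared by autophagy, rose slightly, from 1100.3, 1058 and 1093 CPM to 1177, 1209 and 1195 CPM (0.14 ± 0.03, adjusted p = 9.32e-04). The mitophagy receptor Bnip3, which is also a hypoxia target, rose from 128, 134 and 183 CPM to 1100.0, 1121 and 864 CPM (2.80 ± 0.18, adjusted p = 3.84e-13), and its relative Bnip3l rose by 1.58 ± 0.09. Lysosomal genes and TFEB targets rose in 11 and fell in 8 of 34 tested, with a median of 0.03. The cathepsin genes Ctsb (0.41 ± 0.04) and Ctsl (0.46 ± 0.05) rose, while Atp6v0a1, a proton pump subunit (-0.54 ± 0.06), Flcn (-0.47 ± 0.05) and Tfeb itself (-0.46 ± 0.09) fell.

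Hypoxia-inducible and glycolytic genes were mostly higher as well. Of 23 hypoxia-inducible genes, 17 rose and 3 fell, with a median of 1.37. Vegfa, the angiogenic factor, rose from 40.1, 43.8 and 47.9 CPM to 173, 188 and 155 CPM (1.97 ± 0.09, adjusted p = 6.15e-16). P4ha2, a collagen prolyl hydroxylase, rose from 45.8, 46.4 and 53.7 CPM to 232, 244 and 201 CPM (2.22 ± 0.09, adjusted p = 4.81e-18), and Ankrd37 rose from 3.43, 3.89 and 5.28 CPM to 33.7, 37.00 and 27.1 CPM (2.97 ± 0.15). In each of these 3 genes all double knockout libraries lay above all Rnf31 knockout libraries, as in 27.3% of all genes tested. Hif1a, the transcription factor subunit whose protein is stabilised in low oxygen, fell from 212, 215 and 234 CPM to 185, 180.4 and 196 CPM (-0.24 ± 0.07), as did its inhibitor Hif1an (-0.40 ± 0.09) and the vasodilator peptide gene Adm (-0.73 ± 0.19).

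Of 21 glycolytic genes, 19 rose and 1 fell, with a median of 0.94. The glucose transporter Slc2a1 rose from 92.4, 82.97 and 100.2 CPM to 285, 302 and 251 CPM (1.61 ± 0.08, adjusted p = 6.15e-16), the first enzyme Hk1 from 104, 107 and 125 CPM to 322, 371 and 355 CPM (1.64 ± 0.08), and the last, Ldha, from 3204, 3130.4 and 3312 CPM to 6500.5, 6572 and 5874 CPM (0.97 ± 0.05, adjusted p = 2.11e-15). The second glucose transporter, Slc2a3, fell from 25.6, 28.4 and 25.5 CPM to 19.5, 17.3 and 18.4 CPM (-0.53 ± 0.09). The abundant mutase Pgam1 rose from 1403, 1377 and 1477 CPM to 2679.8, 2753 and 2539 CPM (0.91 ± 0.04). No source used here gives culture density or medium at harvest, and their part in these levels was not tested.

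The string ACGTGC, a core of the hypoxia response element, was searched in the same 250 bases on both strands, and is shown for 5 genes of these lists. Pgk1, a kinase of lower glycolysis that rose by 0.96 ± 0.05, was added for its match after its values were seen. Capitals mark the matches in RefSeq sequence on GRCm38.p6. The windows are Slc2a1 (chr4:119108684-119108739, plus strand), Ankrd37 (chr8:46000061-46000100, minus strand), Ldha (chr7:46845744-46845799, plus strand), Pgk1 (chrX:106186943-106186998, plus strand) and Bnip3 (chr7:138909583-138909638, minus strand), where 2 matches on opposite strands overlap.
Slc2a1: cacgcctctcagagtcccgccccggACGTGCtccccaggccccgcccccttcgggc
Ankrd37: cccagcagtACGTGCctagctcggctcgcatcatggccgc
Ldha: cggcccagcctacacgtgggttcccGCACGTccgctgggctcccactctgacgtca
Pgk1: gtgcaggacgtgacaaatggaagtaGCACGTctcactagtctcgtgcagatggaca
Bnip3: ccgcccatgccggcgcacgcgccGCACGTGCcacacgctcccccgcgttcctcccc

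The string occurred in 9 of 18 hypoxia-inducible genes with a sequence (50%) and 6 of 20 glycolytic genes (30%). It occurred in 8.37% of tested genes (838 of 10017) and in 5.63% of all promoters.

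**Figure D2:**
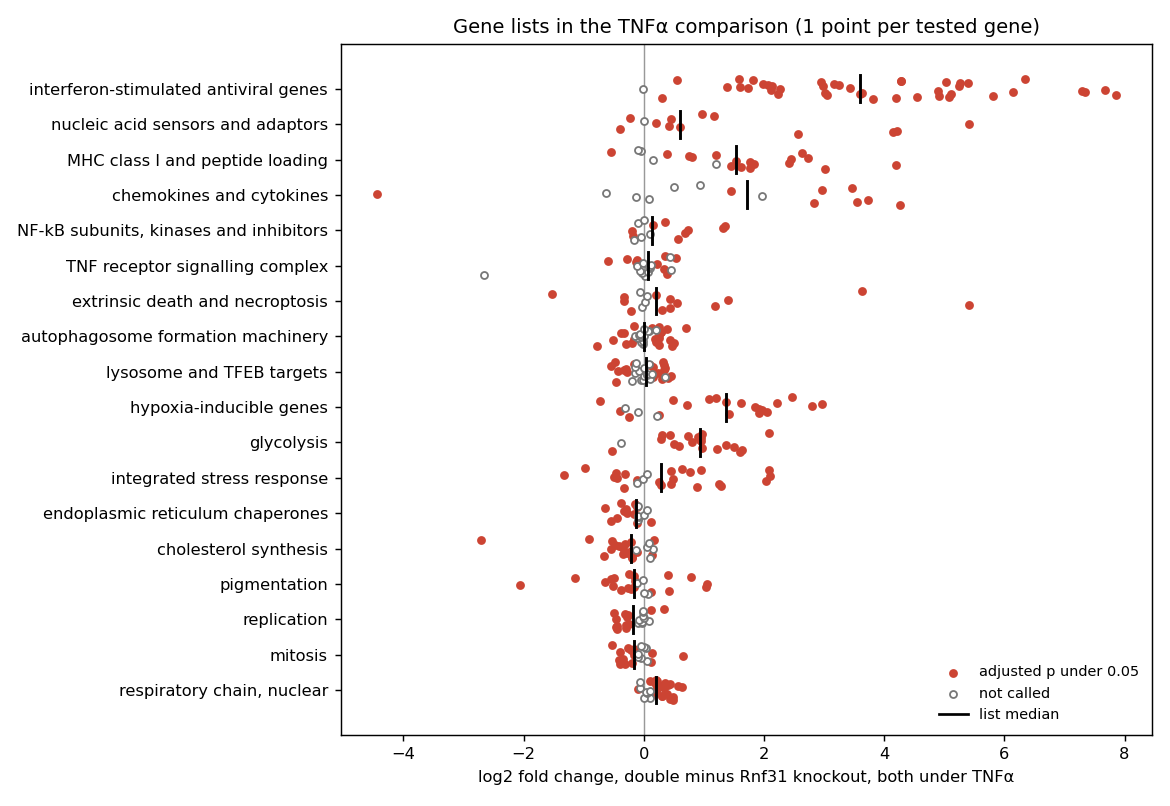
Log2 fold change of the double over the Rnf31 knockout under TNFα for each tested gene of 18 lists. Each point is 1 gene, filled where the adjusted p was under 0.05 and open where it was not, and the black bar is the median of the list. The interferon-stimulated genes sit highest with a median of 3.59, followed by chemokines (1.71), MHC class I (1.53), hypoxia-inducible genes (1.37) and glycolysis (0.94).

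Stress programmes differed from one another in direction. Of 25 tested genes of the integrated stress response, 14 rose and 8 fell, with a median of 0.28. Aldh1l2, a mitochondrial folate enzyme, rose from 63.7, 68.3 and 74.1 CPM to 285, 311 and 285 CPM (2.10 ± 0.06, adjusted p = 1.30e-20), and the mTORC1 inhibitor Ddit4 from 55.9, 50.7 and 67.4 CPM to 248, 263 and 205 CPM (2.04 ± 0.13). Atf4, the transcription factor of the programme, fell from 323, 313 and 297 CPM to 257, 255 and 231 CPM (-0.33 ± 0.05), and its target Mthfd2, another mitochondrial folate enzyme, fell by 0.50 ± 0.04. Endoplasmic reticulum chaperones and their helpers fell in 11 of 18 genes and rose in 1, with a median of -0.13. Among all genes 27.2% were lower and 24.2% higher. Herpud1, which links the membrane to protein degradation, fell from 136, 138 and 124 CPM to 85.9, 83.3 and 85.4 CPM (-0.65 ± 0.05), and Hsp90b1 was the 1 that rose (0.12 ± 0.03).

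NRF2 targets and iron storage genes were evenly split, with 9 of 26 higher and 9 lower (5 lower without Rnf31 knockout replicate 1). Srxn1, a sulfiredoxin, rose from 105, 104 and 102 CPM to 154, 158 and 156 CPM (0.59 ± 0.05), and the glutathione transferase Gsta4 fell from 5.31, 3.98 and 4.55 CPM to 0.530, 0.743 and 1.23 CPM (-2.51 ± 0.20). Slc7a11, the cystine transporter that both this list and the stress response hold, fell from 17.8, 18.2 and 21.8 CPM to 7.88, 8.39 and 6.71 CPM (-1.32 ± 0.13). Cholesterol synthesis and uptake genes fell in 16 of 23 and rose in 2, against 27.2% lower among all genes, with a median of -0.22. Insig1, the sterol-sensing retention factor, fell by 0.53 ± 0.05. The 2 that rose were Sqle (0.14 ± 0.05) and Stard4 (0.17 ± 0.06).

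Targets of p53 also split, with 8 of 23 tested higher and 7 lower. Cdkn1a, the gene of the cell cycle inhibitor p21, rose from 97.3, 95.6 and 105 CPM to 385, 419.7 and 363 CPM (1.97 ± 0.07, adjusted p = 2.80e-19), while Trp53 itself fell by 0.26 ± 0.06. Replication genes fell in 11 of 22 and rose in 2, with a median of -0.17, and mitotic genes fell in 12 of 22 and rose in 3 (1 without double knockout replicate 2), with a median of -0.16. The helicase subunit Mcm5 fell from 527, 520.2 and 517 CPM to 395, 377 and 384 CPM (-0.44 ± 0.04). Mki67, the proliferation marker, fell from 259.7, 259.7 and 284 CPM to 189, 209 and 215 CPM (-0.39 ± 0.06), whereas the checkpoint kinase gene Bub1 rose from 107, 108 and 104 CPM to 173, 175 and 156 CPM (0.65 ± 0.05).

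Pigment genes changed in different directions within a narrow range of sums. Of 23 tested, 6 rose and 13 fell, with a median of -0.16. Trpm1, a melanocyte cation channel, fell from 123, 123 and 122 CPM to 31.1, 27.3 and 29.8 CPM (-2.06 ± 0.07, adjusted p = 1.92e-19), and Mc1r, the melanocortin receptor, rose from 127, 122 and 127 CPM to 254, 264 and 268 CPM (1.06 ± 0.04, adjusted p = 3.48e-17). Dct rose by 0.42 ± 0.04 and the melanosome scaffold gene Pmel fell by 0.38 ± 0.03. The lineage factor Mitf, at 365, 379 and 407 CPM against 399, 423 and 385 CPM, overlapped between lines (0.07 ± 0.05, adjusted p = 0.260), and so did Tyr (0.00 ± 0.06, adjusted p = 0.984).

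Among dedifferentiation, mesenchymal and matrix genes, 13 of 24 tested rose and 6 fell, with a median of 0.31. Fibronectin (Fn1) rose from 102, 89.8 and 108 CPM to 179, 207 and 202 CPM (0.97 ± 0.08), and the neural crest factor Sox9 fell from 10.4, 9.76 and 11.9 CPM to 1.97, 2.66 and 2.66 CPM (-2.14 ± 0.22). Immediate early genes rose in 10 of 18 tested and fell in 2. Besides Ier3, given above, the AP-1 subunit Fosl2 rose from 25.2, 24.5 and 27.8 CPM to 109, 142 and 104 CPM (2.20 ± 0.10). The 2 that fell were Myc (-0.70 ± 0.06) and Ier2 (-0.55 ± 0.08). Of 15 ERK feedback genes, 11 were not called.

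Of 13 tested immune ligands and checkpoints, 8 rose and 1 fell, with a median of 0.54. Lgals9, the gene of galectin-9, had the smallest adjusted p of this list, rising from 13.2, 13.1 and 12.7 CPM to 99.4, 87.01 and 97.1 CPM (2.86 ± 0.06, adjusted p = 2.50e-24). Tnfrsf9, the costimulatory receptor 4-1BB, rose from 0.520, 0.618 and 0.726 CPM to 11.6, 11.4 and 9.01 CPM (4.11 ± 0.19), and the poliovirus receptor Pvr, a ligand of Tigit, by 1.03 ± 0.08. Cd274, the gene of PD-L1, was at 3.09, 2.87 and 2.68 CPM against 2.88, 2.93 and 3.07 CPM (0.04 ± 0.17, adjusted p = 0.877).

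Small changes went along with transcript length. With the 13350 tested genes of known longest transcript divided into 10 equal bins by length, the median log2 fold change went from 0.22 in the shortest bin (204 to 1215 bases) to -0.20 in the longest (6659 to 123179 bases). With vehicle the same medians went from 0.07 to -0.05. With each library corrected for its own length trend, the medians under TNFα lay between -0.03 and 0.02. The nuclear respiratory chain genes, which are mostly short, rose in 22 of 30 and fell in 1 with a median of 0.21, and after the correction rose in 18 and fell in 3 with a median of 0.12. Cox4i1, a subunit of complex IV, rose from 525, 521 and 507 CPM to 817, 785 and 701 CPM (0.57 ± 0.07). Mitochondrially encoded transcripts rose in 2 of 13 and fell in 3, and after the correction in 0 and 4, led by mt-Nd3, from 72.02, 74.5 and 73.3 CPM to 26.6, 38.9 and 37.5 CPM (-1.10 ± 0.21). Whether RNA quality or library preparation set the trend was not tested.

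**Figure D3:**
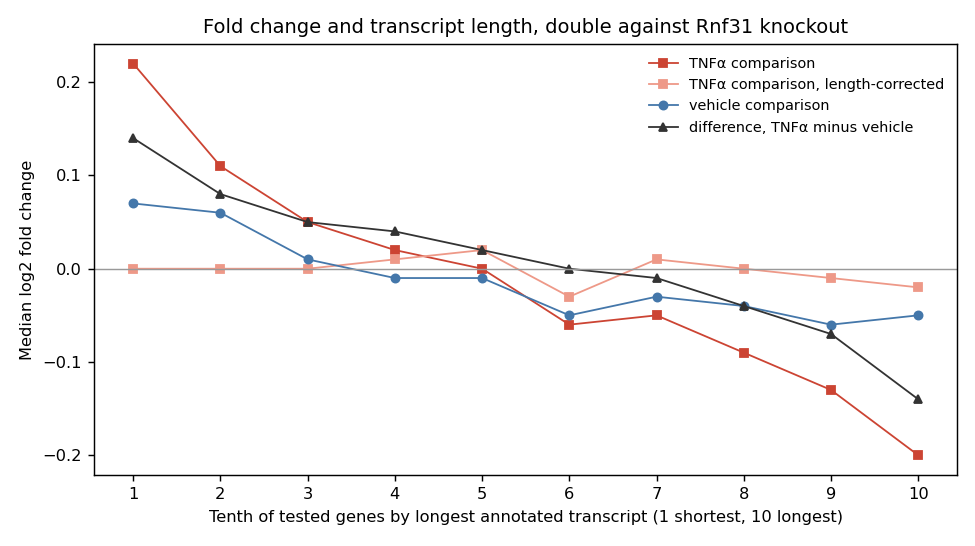
Median log2 fold change in 10 equal bins of genes ordered by longest annotated transcript, for the double against the Rnf31 knockout under TNFα before and after the length correction, for the same contrast with vehicle, and for the difference between the TNFα and vehicle contrasts. The uncorrected line under TNFα falls from 0.22 to -0.20, and the corrected line stays near 0.

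The largest falls were in genes that were all but silent in the double knockout. Btn2a2, a butyrophilin that restrains T cells, stood at 26.5, 28.8 and 26.1 CPM in the Rnf31 knockout and had 0 counts in the double knockout under TNFα, at least 625-fold lower (2379 counts, with the empty group set to 3 in sum). It was also near 0 with vehicle, with 1913 counts against 1. The small heat shock protein gene Hspb1 had 201 counts against 0, at least 52.8-fold lower, Sytl4, an effector of vesicle docking, 232 against 0, at least 60.9-fold lower, and Lhfpl4, a synaptic membrane gene, 156 against 0, at least 41.0-fold lower. Nostrin, which binds the endothelial nitric oxide synthase, had 294 counts against 2, a ratio of 116 (95% counting interval 31.8 to 961).

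Other large falls left transcript detectable. Abca12, a lipid transporter, fell from 47.3, 47.6 and 50.2 CPM to 4.01, 2.53 and 4.40 CPM (-3.73 ± 0.12, adjusted p = 1.92e-19). Sigirr, a damping receptor of the interleukin-1 family, had 353 counts against 13, a ratio of 21.4 (12.3 to 40.6), and the xenobiotic enzyme Cyp1a1 287 against 10, a ratio of 22.6 (12.1 to 47.7). In the Atg5 knockout with Rnf31 intact, these genes divided. Hspb1 was higher there than in its control under TNFα, at 9.62, 10.1 and 10.1 CPM against 2.09, 1.69 and 2.16 CPM, and Sytl4 was higher too, at 6.54, 5.23 and 5.85 CPM against 2.61, 2.99 and 3.09 CPM. Btn2a2 was lower, at 0.737, 0.862 and 0.510 CPM against 13.1, 12.4 and 12.8 CPM, and Abca12 was lower, at 10.04, 7.92 and 10.9 CPM against 28.1, 25.9 and 29.4 CPM. Hspb1, Sytl4 and Lhfpl4 were thus at or near 0 in the double knockout line under both treatments and in no other TNFα group, and whether the editing or the history of that line accounts for this was not tested.

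**Figure D4:**
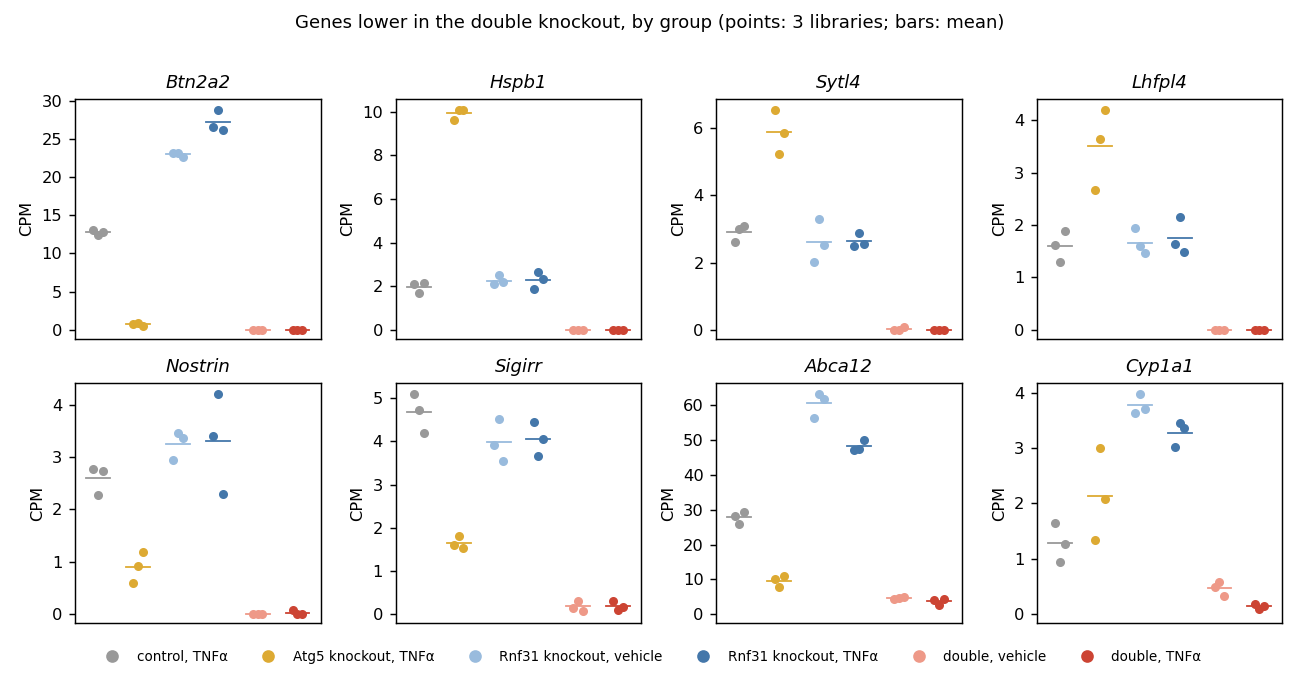
Level in CPM of 8 genes that were lower in the double than in the Rnf31 knockout under TNFα, by library in 6 groups. Btn2a2, Hspb1, Sytl4 and Lhfpl4 have 0 counts in the 3 double knockout libraries under TNFα, while Hspb1, Sytl4 and Lhfpl4 are higher in the Atg5 knockout than in the control knockout.

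With vehicle in place of TNFα, the same pair of lines differed in 6502 genes (48.1% of those tested), 3040 higher (22.5%) and 3462 lower (25.6%). Of the genes higher under TNFα, 2433 were also higher with vehicle, 74.4% of the first list and 80.0% of the second. Of those lower, 2805 were shared, 76.1% and 81.0%. Opposite calls numbered 1 and 12. Among the 616 genes over 2-fold higher under TNFα, 517 were called higher with vehicle as well, 466 of them over 2-fold, against 4.87% over 2-fold higher among all genes with vehicle. The 2 contrasts share no library but share both cell lines. The interferon-stimulated list had a median of 3.53 with vehicle, with 42 of 43 higher, beside 3.59 under TNFα, and the hypoxia list a median of 1.20 beside 1.37.

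**Figure D5:**
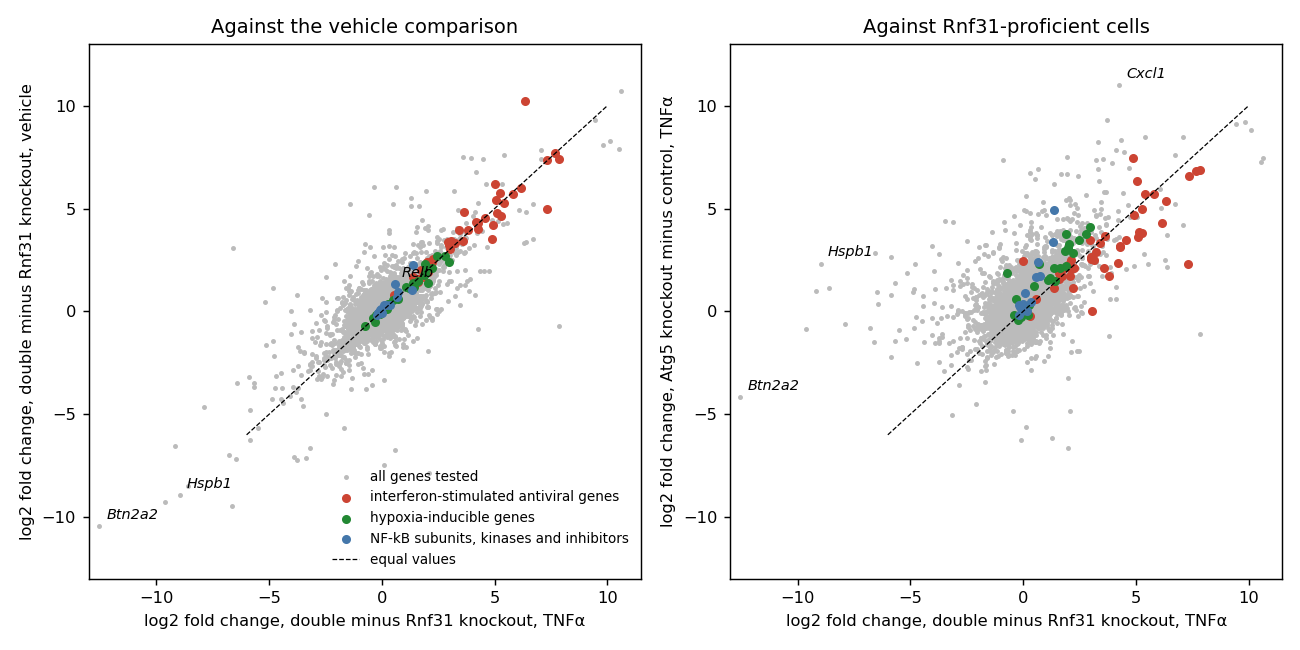
Log2 fold change of the double over the Rnf31 knockout under TNFα (horizontal axis) against the same lines with vehicle (left, vertical axis) and against the Atg5 knockout over the control knockout under TNFα (right, vertical axis). Each point is 1 gene, with interferon-stimulated genes in red, hypoxia-inducible genes in green and NF-κB genes in blue, and the dashed line marks equal values. Most interferon genes lie high on every axis, with medians of 3.59, 3.53 and 2.63.

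The difference between the TNFα and vehicle contrasts was itself tested, and 53 genes were called, 0.392% of those tested, with all 53 having a smaller log2 value under TNFα. The unadjusted p was under 0.05 in 1437 genes, and DESeq2 called 96, of which 20 had a larger value under TNFα. Leaving out 1 library at a time gave 11 to 61 calls. The count was 16 without Rnf31 knockout replicate 3 and 11 or 30 without double knockout replicate 1 or 2 under TNFα, and among the vehicle libraries it was 19 without Rnf31 knockout replicate 1 or 2, and 22 or 15 without double knockout replicate 2 or 3. Cxcl10 was 2.83 higher in the double knockout under TNFα and 3.44 with vehicle, a difference of -0.61 ± 0.11 (adjusted p = 0.0119). Within lines, TNFα moved Cxcl10 by 0.78 in the Rnf31 knockout and by 0.17 in the double knockout, from vehicle levels of 5.89, 6.03 and 6.28 CPM and of 61.7, 62.8 and 73.6 CPM. Relb differed by -0.75 ± 0.16 (adjusted p = 0.0293), with a TNFα response of 0.92 in the Rnf31 knockout and 0.17 in the double knockout. Atf3, a stress-response transcription factor, differed by -0.63 ± 0.14 (adjusted p = 0.0339), and its TNFα responses were 0.74 and 0.11. In these 3 genes the double knockout was the higher line under both treatments. Cxcl10 passed the test under every alternative run, while Relb was not called after the transcript length correction (-0.76, adjusted p = 0.0696) and reached an adjusted p of 0.111 without Rnf31 knockout replicate 3 under TNFα and Atf3 one of 0.121 without Rnf31 knockout replicate 2 with vehicle.

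Long genes made up most of the 53. Their median longest transcript was 13307 bases against 3223 over all tested genes, and 40 of the 53 (75.5%) lay in the longest of the 10 length bins. Syne2, a giant protein linking nucleus and cytoskeleton, was at 168, 168 and 171 CPM against 79.9, 84.1 and 95.8 CPM under TNFα, with a difference between contrasts of -0.73 ± 0.10 (adjusted p = 4.84e-04) that became -0.39 after the length correction (adjusted p = 0.0705). After that correction 6 genes were called. Cxcl10 (-0.65), Atf3 (-0.68) and Tapbp (-0.44) were called with and without it, and D10Wsu102e (0.66), Hnrnpr (0.39) and Serbp1 (0.34) only with it.

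In cells with intact Rnf31, Atg5 disruption under TNFα went with 7966 called genes (58.9%), 4048 higher (29.9%) and 3918 lower (29.0%). This contrast shares neither libraries nor lines with the main one. It had 2278 genes higher in common with it, 69.6% of those higher without Rnf31 and 56.3% of those higher with it, and 2479 lower in common, 67.3% and 63.3%. Opposite calls numbered 182 and 234. Of the 616 genes over 2-fold higher in the double knockout, 527 were also called higher here and 2 lower, with 477 of them over 2-fold higher against 9.40% of all genes. Of the 300 over 2-fold lower, 123 were called lower and 42 higher. The list medians here were 2.63 for interferon-stimulated genes, 2.11 for MHC class I, 3.36 for chemokines, 2.09 for hypoxia and 1.24 for glycolysis.

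The difference between these contrasts was called in 4102 genes (30.3%), 1888 with a larger value (14.0%) and 2214 with a smaller value (16.4%) in the cells without Rnf31. Of the interferon-stimulated genes, 16 of 43 had a larger value without Rnf31 and 1 a smaller one, a lower share of larger values than in some lists given below. Ifit1 rose by 3.82 in the double knockout and by 1.72 in the Atg5 knockout, a difference of 2.09, and Rtp4 by 6.15 and 4.29, a difference of 1.86. Trim25 was the 1 with a smaller value, having risen by 2.47 in the Atg5 knockout. The median difference of the list was 0.34. Among other interferon-linked lists, nucleic acid sensors and adaptors had a larger value without Rnf31 in 4 of 13 genes and a smaller one in 2. The other 7 were not called, and the median difference was -0.09. Receptors, STATs and IRFs had a larger value in 2 of 19 genes and a smaller one in 7, with a median of -0.20. MHC class I genes had 0 and 7 of 21, with a median of -0.39. H2-K1 rose by 3.01 without Rnf31 and by 4.15 with it, a difference of -1.14 (adjusted p = 1.71e-05), and Irf1 by 1.04 and 1.98, a difference of -0.94 (adjusted p = 4.46e-07).

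Inflammatory, hypoxic, glycolytic and integrated stress response genes also often had smaller values without Rnf31, against 16.4% smaller among all genes. Chemokines had a smaller value without Rnf31 in 7 of 14 genes, NF-κB genes in 9 of 14, TNF-induced feedback genes in 11 of 17, hypoxia-inducible genes in 15 of 23, glycolytic genes in 15 of 21 and integrated stress response genes in 20 of 25. In all but the TNF feedback list, where 1 gene (Irak2) had a larger value, none did. Other stress lists differed. Endoplasmic reticulum chaperones had a larger value in 8 of 18 genes and a smaller one in 4. NRF2 targets and iron storage genes had a larger value in 12 of 26 and a smaller one in 7. Both directions were also seen in lists of other kinds. Pigment genes had a larger value in 15 of 23 and a smaller one in 3, and replication genes in 14 of 22 and 0. Nuclear respiratory chain genes had a larger value in 16 of 30 and a smaller one in 1, and ERK feedback genes in 8 of 15 and 0. Values were smaller in 17 of 24 dedifferentiation, mesenchymal and matrix genes and in 12 of 18 immediate early genes, and larger in 0 of either. Cxcl1 stood at 161, 176 and 162 CPM in the Atg5 knockout and at 0.0803, 0.134 and 0.0318 CPM in its control under TNFα, a ratio of 2196 (13143 counts against 6, 95% counting interval 1009 to 5985), beside the ratio of 19.8 in cells without Rnf31. Nfkbia rose by 2.42 with Rnf31 and by 0.68 without it, Vegfa by 3.06 and 1.97, and Csf1 by 2.26 with Rnf31 while its value without was -0.13 and not called. Mlkl was higher by 1.18 without Rnf31 and by 0.92 with it, a difference of 0.26 (adjusted p = 0.0199). B2m rose by 1.83 and 1.80, and its difference of 0.03 ± 0.07 was not called (adjusted p = 0.775). The contrast compares 4 lines, so the part of Rnf31 and that of line-to-line variation cannot be told apart.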

How the data were processed

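RNA of 24 libraries of B16F10 cells, 8 groups of 3, was sequenced as total RNA, per the labels' protocols. The authors deposited 1 table of expected counts per gene symbol, not normalized, and the submitters' processing notes name STAR, RSEM, DESeq2 and the builds GRCm38 and mm10. No source used here gives the annotation or the strand setting. All values were whole numbers. A row with a blank name, 0.14% of counts on average, was left out.

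The 13527 of 15738 named genes that passed filterByExpr were fitted together over all 24 libraries with edgeR 4.0.16 (R 4.3.3; TMM scaling, quasi-likelihood test, 1 mean per group). A gene was called at a Benjamini-Hochberg adjusted p under 0.05. CPM uses TMM-scaled library sizes. Errors beside log2 fold changes are approximate standard errors, the absolute fold change divided by the square root of the test's F statistic. They are unreliable for values near 0 and for groups with few counts. Genes with few counts have a ratio of summed counts with an exact 95% interval, or a bound with 3 counts in an empty group, both for counting error only. Totals of 19425795 to 33385502 counts per library set the precision, and the biological coefficient of variation was 6.17%. The alternatives were run in edgeR and DESeq2 1.42.0. The procedure was run on simulated data in which few genes changed and no length trend was built in. That run does not cover data with as many changes as these. Positions and transcript lengths are from GENCODE M21, promoters from RefSeq (GRCm38.p6).

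The comparison, the 35 gene lists and the named genes were chosen with earlier results of these data known. Named were the targeted genes, the 15 largest changes each way among genes that were called, reached 2 CPM and did not overlap, the 5 smallest adjusted p in each list, the 10 largest each way in the difference tests, a list of genes by name, and members moving against most of their list.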

Additional observations from a re-analysis of the deposited data

Results flagged for a closer look

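The difference between the TNFα and vehicle contrasts of the double over the Rnf31 knockout passed the test in 53 genes (edgeR, adjusted p under 0.05). Of those at 2 CPM or more, the largest were Pagr1a (-4.36), Hs3st1 (-0.93), Zbtb20 (-0.84), Rnf213 (-0.77), Relb (-0.75), Syne2 (-0.73), Kmt2a (-0.63), Atf3 (-0.63), Cxcl10 (-0.61) and Kmt2c (-0.60), on the log2 scale. Pagr1a rested on scattered libraries, at 6.87, 0.741 and 5.39 CPM in the Rnf31 knockout and 1.36, 0.349 and 1.33 CPM in the double knockout under TNFα. Zbtb20 was at -0.45 and Rnf213 at -0.48 after the length correction, with adjusted p of 0.195 and 0.163 in edgeR.

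The difference between cells without and with Rnf31, both under TNFα, passed the test in 4102 genes. The larger values without Rnf31 were led by Setbp1 (5.19), Oasl1 (3.04), Apol9a (2.90), Gbp6 (2.69), Myl9 (2.24), Car8 (2.20), Ifit1 (2.09), Adam12 (1.88), Rtp4 (1.86) and Lims2 (1.85). Setbp1 was at 0 counts in 5 of the 6 libraries with Rnf31, so its fitted value depends on the prior count. Myl9, a myosin light chain, rose from 1.39, 1.02 and 0.918 CPM to 6.74, 7.73 and 7.07 CPM in the double knockout.

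The smaller values were led by Hspb1 (-11.29), Sytl4 (-10.19), Lhfpl4 (-9.73), Itm2a (-8.50), Btn2a2 (-8.38), Nr5a1 (-7.46), Cxcl1 (-6.75), Gpm6b (-6.65), Pdgfb (-5.51) and Cp (-5.22). Where a group had 0 counts the fitted value is no bound. Cp, the ferroxidase ceruloplasmin, fell from 31.5, 36.4 and 33.7 CPM to 19.2, 18.8 and 17.6 CPM in the double knockout, while it stood at 573, 615 and 564 CPM in the Atg5 knockout and at 27.6, 28.5 and 29.4 CPM in its control.

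The row with a blank name, which no comparison uses, held 0.832% of counts in double knockout replicate 3 under TNFα and 0.617% in Atg5 knockout replicate 1 under TNFα, against 0.0612% to 0.163% in the other 22 libraries.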

How the results depend on the processing

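Most results of the main comparison held under the alternatives. Its count of 6956 genes was 6916 with RLE size factors, 6854 without the low-count filter, 6682 with a filter at a mean of 1 CPM, 6952 in DESeq2, 6848 in a fit of the 2 groups alone and 6050 to 6740 without 1 library. Tested against a log2 fold change of 1 with glmTreat, 384 genes passed, 293 higher and 91 lower. Of 3842 single-gene values, 3639 kept direction and call, 177 lost the call (144 of them in glmTreat) and 20 gained one. Direction turned under the transcript length correction in 6 long genes of the main comparison, Cep350 (0.19), Golgb1 (0.22), Macf1 (0.10), Nbeal1 (0.20), Nfat5 (0.18) and Trio (0.02), and for Macf1 also in the difference of the TNFα and vehicle contrasts (0.02). That difference was called in 96 genes by DESeq2, in 6 after the length correction and in 11 to 61 without 1 library, where fewer samples were fitted. Otherwise the cause was not tested. The vehicle comparison gave 5666 to 6032 calls, the comparison with Rnf31 intact 7199 to 7558 and the difference between them and the main one 3526 to 4130 without 1 library. In that last difference Gbp6 and Setbp1 lost the call without 1 library, and Setbp1 went to 1.97 without control replicate 3. Members called per list changed by over 1.5 times in 120 of 960 values, 58 of them in glmTreat. Same-numbered replicates did not deviate together (correlations 0.011, -0.0234 and -0.016 in the main comparison), so the numbers were not taken as pairs. With the replicate number as a block (replicate block), the counts were 7061 in the main comparison, 6642 with vehicle, 8040 with Rnf31 intact, 72 for the difference with treatment and 4257 for that with Rnf31. At these depths, genes with few counts per group allow only ratios with wide intervals.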
